A study of Acomys cahirinus and Mus musculus with 6 samples.

Results

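The genes described here are Cyp1a1, Cyp2b10, Cyp4b1, Aldh3a1, Fmo2, Adh7, Aox4, Stra6, Rbp2 and Hpgd, 10 of the 20381 genes in the deposited count table. They were listed because they handle foreign compounds, retinoids or prostaglandins in epithelia, and they were listed with earlier results of these data known. In particular, the high Cyp2b10 level of keratinocytes under the ERK inhibitor put the list together, so that value is given as a description only. The genes were read in 26886 epithelial cells out of 39577 cells of healing ear skin.

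Skin epithelium carries its own detoxifying enzymes. Cytochromes P450 and flavin-containing monooxygenases add oxygen to fat-soluble compounds, aldehyde dehydrogenases and aldehyde oxidases turn the resulting aldehydes into acids, and in liver many of these genes are switched on by receptors for foreign compounds, such as the aryl hydrocarbon receptor for Cyp1a1 and the nuclear receptor CAR for Cyp2b10. Retinoids pass through a related set of proteins: retinol is taken up, bound inside the cell and oxidised by alcohol dehydrogenases to retinaldehyde and then to retinoic acid, a regulator of keratinocyte and sebaceous differentiation.

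The study profiled single cells of ear pinna skin during closure of an ear punch. In wild-type spiny mice (Acomys) an inhibitor of ERK, of ErbB2 or of FGFR1/2/3 was injected from day 12 to day 15, and DMSO was injected in the same way in the controls. In CD1 mice, micro-beads carrying FGF2 and NRG1, or PBS in the controls, were placed at day 10. The labels name no transgene or deletion in any group and give neither the age, nor the number of animals pooled, nor the day of harvest. Each of the 6 groups is 1 library made with the 10x Genomics 3′ chemistry, so no test between groups exists and no p-value is given. The 3 inhibitor libraries are each compared with the same DMSO library, so a high or low count in DMSO enters all 3 comparisons. Spiny mouse and mouse levels are not compared, because reads of both species were counted under mouse gene symbols.

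The libraries differed in size. The ERK inhibitor library held 631 cells and 7429819 UMIs (unique molecular identifiers, each counting 1 captured transcript), the ErbB2 inhibitor library 10632 cells, the FGFR inhibitor library 4782 cells and the DMSO library 15363 cells and 70058081 UMIs. The FGF2 and NRG1 bead library held 5104 cells and the PBS bead library 3065. Any pair of libraries shared between 0 and 49 cell barcodes. A level is the number of UMIs of a gene among each 1000000 UMIs of the same class of cells (CPM). Ratios are on the log2 scale, inhibitor over DMSO or FGF2 and NRG1 beads over PBS beads, with 1 UMI added to each count before scaling. The 95% intervals are exact binomial ones that cover counting error only and leave out the spread between animals. A value counts as higher or lower past 1.5-fold, with at least 30 UMIs over both libraries.

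Epidermal keratinocytes here are the interfollicular clusters of the authors' annotation, without clusters 1, 31, 41, 44 and 46. Each of these 5 had more marker genes of another class than of keratinocytes among its 10 leading genes. Together they hold 11.7% of interfollicular cells under the ERK inhibitor, 16.3% under the ErbB2 inhibitor, 16.2% under the FGFR inhibitor and 17.2% in DMSO. Cluster 12, annotated as outer root sheath, failed the same check and is given by its number. The remaining class held 256 cells in the ERK inhibitor library, 4719 in the ErbB2 inhibitor library, 2110 in the FGFR inhibitor library and 7001 in DMSO and its spinous marker genes summed to between 72920 and 108000 CPM in these 4 libraries. It includes suprabasal cluster 21, whose leading genes begin with Hbb-bs, Hba-a2 and Alas2, which are in none of the marker lists. That cluster had 674 cells under the ErbB2 inhibitor, 22 under the FGFR inhibitor, 149 in DMSO and 0 under the ERK inhibitor. Its part in the class values was not tested. Class sums depend on the cell mix, which was not the same in each library. Suprabasal cells were 59.8% of keratinocytes under the ERK inhibitor, 65.8% under the ErbB2 inhibitor, 55.6% under the FGFR inhibitor and 41.6% in DMSO. With the beads they were 42.0%, against 39.1% with PBS. In these samples fewer cells of a type and less RNA per cell change a class sum in the same way, which is why values within clusters are given as well.

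The mouse loci behind the symbols are known from GRCm38 with GENCODE vM21. Cyp2b10 lies at chr7:25897620-25926624 on the plus strand, in a cluster of close relatives. Of the 1004 stretches of 31 bases in the last 500 bases of its transcripts, 233 (23.2%) also occur in those of Cyp2b13, and 6 genes share at least 1 such stretch. Cyp2b9 and Cyp2b13 have no row in the count table, so reads counted as Cyp2b10 may belong to more than 1 gene of the family, and the spiny mouse Cyp2b gene behind them was not identified here. Cyp4b1 (chr4:115624725-115647723, minus strand) shares 9.5% of such stretches with the pseudogene Cyp4b1-ps2. Cyp1a1 (chr9:57687928-57703824), Aldh3a1 (chr11:61207537-61218421), both on the plus strand, and Fmo2 (chr1:162874317-162898726, minus strand) overlap no other annotated gene. Adh7 (chr3:138217760-138233382), Aox4 (chr1:58210397-58268597), Stra6 (chr9:58063788-58153996), Rbp2 (chr9:98486115-98509781) and Hpgd (chr8:56294585-56321043) lie on the plus strand. Each of these 5 overlaps at least 1 other annotated gene, among them Ccdc33 on the opposite strand of Stra6. The 10 are all annotated as protein-coding.

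In the DMSO library the 10 genes marked different parts of the epithelium. Cyp1a1, which oxidises aromatic hydrocarbons, was a sebaceous gene: 82.3% of its UMIs came from the sebaceous gland, which supplied 12.03% of all UMIs, and its level peaked at 180 CPM in sebaceous cluster 36, against a median of 2.48 CPM over the 27 clusters of at least 30 cells. Cyp2b10 was also highest in cluster 36, at 157 CPM, followed by cluster 12 at 113 CPM, with a median of 35.6 CPM over clusters. Stra6, the membrane receptor that takes up retinol from its serum carrier, reached 122 CPM in cluster 12 and 101 CPM in cluster 1, against a median of 4.13 CPM. Its name stands among the leading genes of both clusters, so that pattern partly follows from how the cells were grouped. The same limit holds for Cyp1a1 in sebaceous cluster 4 and for Aldh3a1 and Cyp4b1 in cluster 1. It also holds for Fmo2 in clusters 0, 11 and 13 and for Aox4 in suprabasal cluster 15.

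Other members followed layers of the epidermis or the follicle. Fmo2, a flavin-containing monooxygenase, peaked at 282 CPM (cluster 0) and 250 CPM (cluster 11), both annotated as basal. Rbp2, a cellular retinol-binding protein best known from the intestine, peaked at 325 CPM in suprabasal cluster 5, where Aox4, an aldehyde oxidase that can oxidise retinaldehyde, also peaked at 136 CPM. Aldh3a1, an aldehyde dehydrogenase abundant in the cornea, reached 3308 CPM in hair germ cluster 26 and 2927 CPM in cluster 1. Hpgd, the enzyme that begins the breakdown of prostaglandins, reached 453 CPM in hair germ cluster 2. Adh7, the alcohol dehydrogenase that oxidises retinol in epithelia, was highest in cluster 12 at 754 CPM, and Cyp4b1, a cytochrome P450 of the fatty-acid-hydroxylating family, in cluster 1 at 33.9 CPM.

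**Figure D1:**
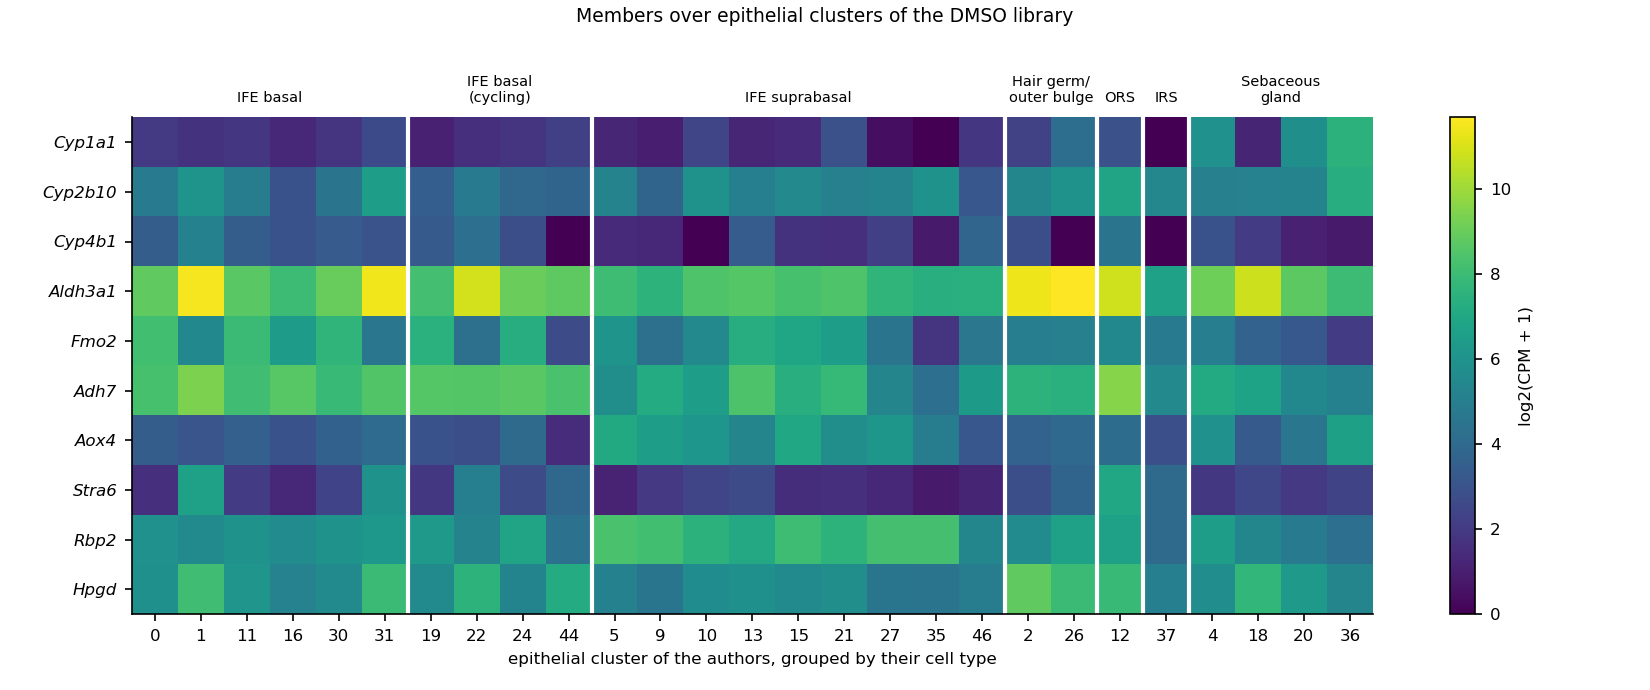
Level of each of the 10 genes (rows) in each epithelial cluster of at least 30 cells in the DMSO library (columns, grouped by the authors' cell type), as log2(CPM + 1) in colour. Cyp1a1 stands out in the sebaceous clusters 36, 4 and 20, Rbp2 and Aox4 in suprabasal clusters, and Aldh3a1 and Hpgd in the hair germ clusters and in cluster 1.

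RNA outside cells limits what a low level can show. In DMSO, Cyp1a1 stood at 1.80 CPM in keratinocytes and at a median of 4.13 CPM over 9 non-epithelial cell types, Stra6 at 3.92 CPM against 7.52 CPM, and Hpgd at 48.6 CPM against 53.3 CPM. These 3 keratinocyte levels cannot be told apart from background in that library. Aldh3a1 was at 392.2 CPM in DMSO keratinocytes and at 367 CPM in the non-epithelial median, and Cyp2b10 at 25.7 CPM and 16.4 CPM. The ERK inhibitor library had a median over 5 non-epithelial types of 0 CPM for 8 of the 10 genes, with 25.1 CPM for Aldh3a1 and 12 CPM for Hpgd. Fibroblast marker genes, which keratinocytes should lack, summed to 34.0 CPM in the keratinocytes of the ERK inhibitor library with 4 of 8 at 0, to 197 CPM under the ErbB2 inhibitor, 66.0 CPM under the FGFR inhibitor and 158 CPM in DMSO, with none at 0 in those libraries. Background therefore differed between the libraries compared, and subtracting the lowest non-epithelial level is given as an alternative at the end.

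Cyp2b10 was the member whose keratinocyte level led to this list. It had 599 UMIs under the ERK inhibitor, 2085 under the ErbB2 inhibitor, 1046 under the FGFR inhibitor and 1112 in DMSO. These are 132 CPM under the ERK inhibitor, 52.6 CPM under the ErbB2 inhibitor, 48.1 CPM under the FGFR inhibitor and 25.7 CPM in DMSO. All 3 inhibitor libraries lay above DMSO, and the ERK inhibitor library lay farthest above it. The log2 ratios were 2.36 (2.21 to 2.5) for the ERK inhibitor, 1.03 (0.93 to 1.14) for the ErbB2 inhibitor and 0.91 (0.78 to 1.03) for the FGFR inhibitor. The mouse libraries showed no such gap, with 23.8 CPM with FGF2 and NRG1 beads and 22.9 CPM with PBS beads, a log2 ratio of 0.06 (-0.22 to 0.33).

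The Cyp2b10 signal was spread over many cells. Under the ERK inhibitor 55.9% of keratinocytes had at least 1 UMI, and the cell with the most held 17 of the 599. The share was 29.0% under the ErbB2 inhibitor, 30.9% under the FGFR inhibitor and 12.3% in DMSO. Keratinocytes of the ERK inhibitor library were also the deepest, with a median of 16309.5 UMIs per cell against 4740 in DMSO. After each cell was thinned to 1000 UMIs, the shares were 12.7% under the ERK inhibitor (12 shallower keratinocytes left out), 5.58% under the ErbB2 inhibitor (80 left out), 5.10% under the FGFR inhibitor (13 left out) and 2.52% in DMSO (51 left out). Among non-epithelial cells 3.19% had a UMI under the ERK inhibitor (median depth 4874 UMIs), 6.56% under the ErbB2 inhibitor (2204), 4.26% under the FGFR inhibitor (2033) and 4.08% in DMSO (1769). Non-epithelial types differed among themselves. Chondrocytes stood above the keratinocytes of their own library, at 54.2 CPM under the ErbB2 inhibitor (25 UMIs), 65.1 CPM under the FGFR inhibitor (23 UMIs) and 31.7 CPM in DMSO (33 UMIs), and the ERK inhibitor library held 5 chondrocytes with 3 UMIs. Resident macrophages had a UMI in 0 of 33 cells under the ERK inhibitor, 3.24% under the ErbB2 inhibitor, 1.68% under the FGFR inhibitor and 5.16% in DMSO.

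**Figure D2:**
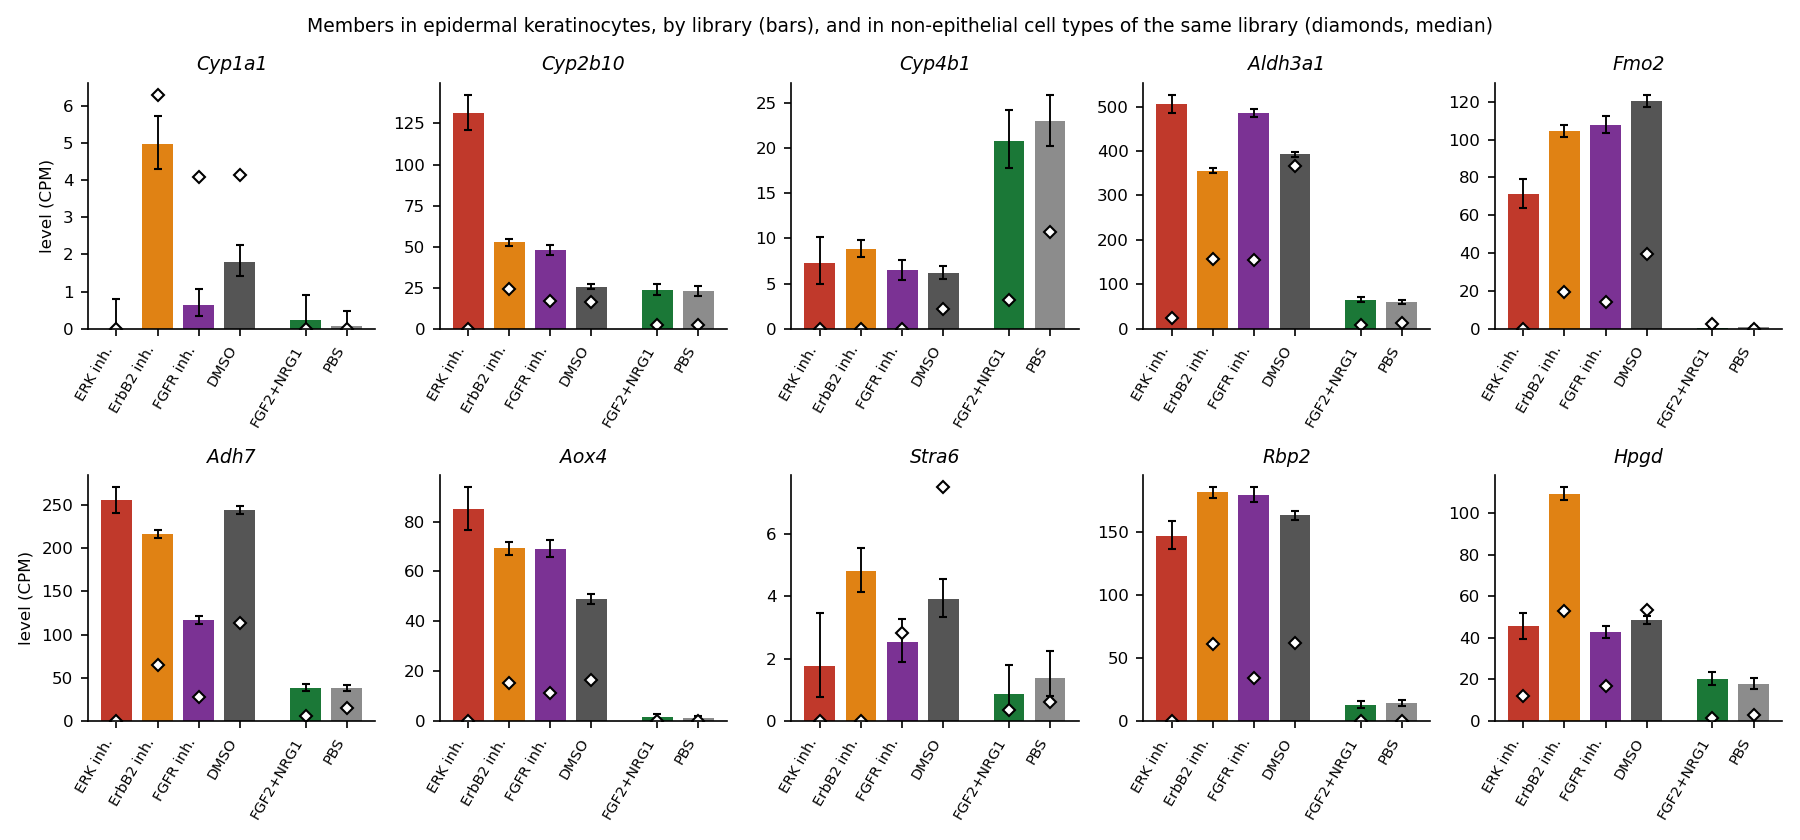
Level in CPM of each gene in epidermal keratinocytes of each library (bars, with 95% counting intervals) and the median level over non-epithelial cell types of the same library (diamonds). For Cyp2b10 the ERK inhibitor bar stands at 132 CPM, above the ErbB2 and FGFR inhibitor bars and the DMSO bar at 25.7 CPM, while its diamond lies at 0.

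Cyp2b10 was higher within keratinocyte layers as well. In basal cells it stood at 160 CPM under the ERK inhibitor, 56.5 under the ErbB2 inhibitor, 52.4 under the FGFR inhibitor and 19.6 in DMSO. In suprabasal cells it stood at 147 CPM under the ERK inhibitor, 55.0 under the ErbB2 inhibitor, 51.2 under the FGFR inhibitor and 33.4 in DMSO. The ratios were larger in basal than in suprabasal cells for each inhibitor, at 3.03 against 2.14 for the ERK inhibitor, 1.52 against 0.72 for the ErbB2 inhibitor and 1.42 against 0.62 for the FGFR inhibitor; the differences were not tested. In cycling basal cells the ERK inhibitor library had 12 UMIs and a ratio of 0.32 (-0.78 to 1.07), so no difference was detectable there at this depth.

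Among the clusters that both libraries fill, weighting them alike left the Cyp2b10 gap nearly as it was. In the 9 keratinocyte clusters with at least 10 cells in both libraries (231 cells under the ERK inhibitor and 4517 in DMSO), the level was 136 CPM under the ERK inhibitor when its clusters were weighted to the DMSO mix and 26.7 CPM in DMSO, a log2 ratio of 2.35. With the ERK inhibitor library's own mix the same clusters gave 2.32. Clusters left out for too few ERK inhibitor cells include cycling clusters 19 (5 cells, 523 in DMSO) and 24 (7 and 444). Basal clusters 11 (2 and 794) and 30 (6 and 445) were left out too, so the weighted value does not cover those cells. Giving the DMSO cells the cluster mix of the ERK inhibitor library moved their level by 0.04 on the log2 scale. At the DMSO mix the ErbB2 inhibitor ratio was 0.90 and the FGFR inhibitor ratio 0.81, over 15 clusters each.

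Single clusters gave the same picture with exceptions. Under the ERK inhibitor, Cyp2b10 was higher past 1.5-fold in 13 of 15 epithelial clusters, with ratios up to 3.12 in basal cluster 16 and 3.11 in suprabasal cluster 9. Cycling cluster 22 had a ratio of -0.32 (-1.57 to 0.56), and sebaceous cluster 20, with 4 UMIs in 14 cells under the ERK inhibitor and 130 UMIs in 390 cells in DMSO, had -1.27 (-3.48 to -0.19). Under the ErbB2 inhibitor the gene was higher in 16 of 25 clusters and lower in 0, and under the FGFR inhibitor in 14 of 25 and 0. Cluster 1, which is outside the keratinocyte class, held 217 CPM under the ERK inhibitor, 135 under the ErbB2 inhibitor, 122 under the FGFR inhibitor and 65.5 in DMSO.

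The Cyp2b10 ratios of the appendages followed another order. In hair germ and outer bulge the levels were 93.6 CPM under the ERK inhibitor, 98.1 under the ErbB2 inhibitor, 71.1 under the FGFR inhibitor and 44.6 in DMSO, with ratios of 1.10, 1.13 and 0.68 for the ERK, ErbB2 and FGFR inhibitors. In the sebaceous gland the levels were 182 CPM under the ERK inhibitor, 83.6 under the ErbB2 inhibitor, 149 under the FGFR inhibitor and 72.5 in DMSO, with ratios of 1.34, 0.20 and 1.04 for the ERK, ErbB2 and FGFR inhibitors. A single cell held 55 of the 143 sebaceous UMIs of the ERK inhibitor library, and without it the level was 115 CPM. That cell lay in cluster 36, which has 7 cells in that library. The ERK inhibitor library had 66 sebaceous cells, against 1404 in DMSO.

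**Figure D3:**
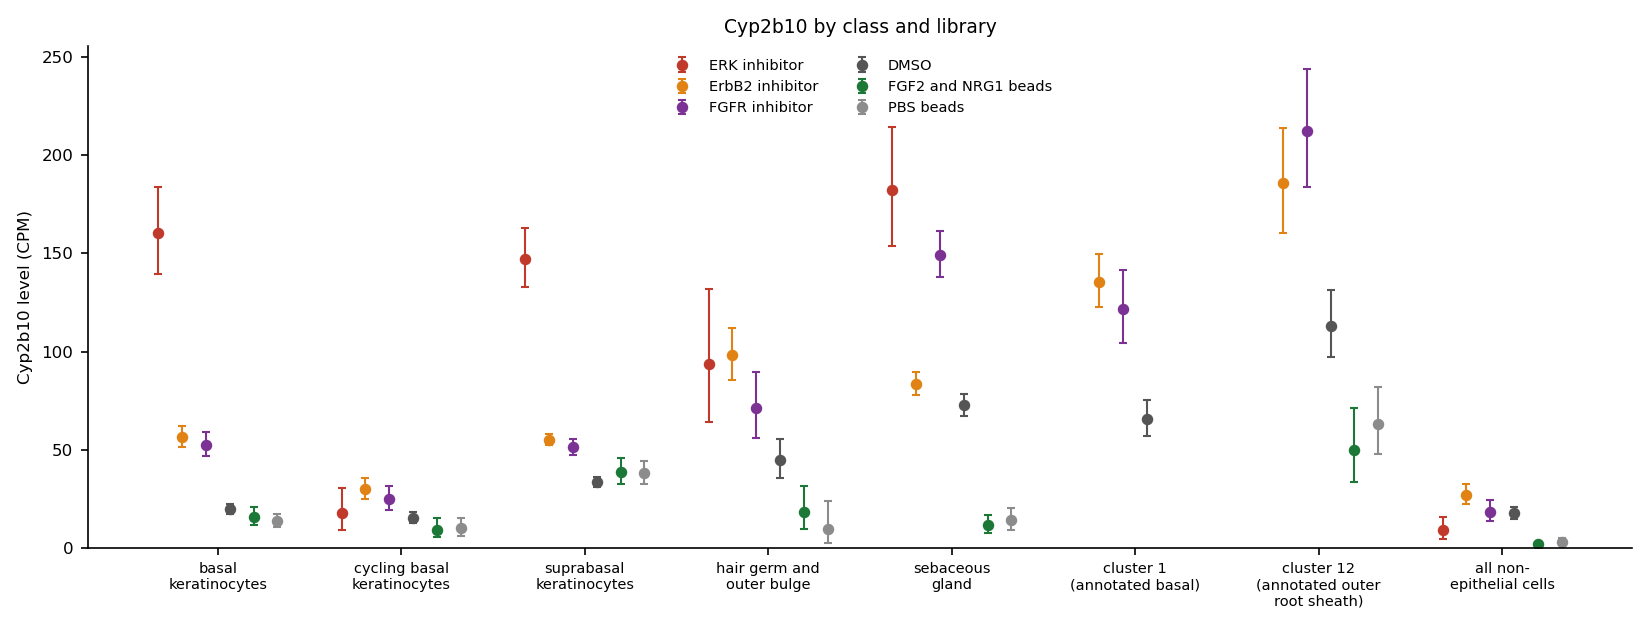
Cyp2b10 level in CPM by class of cells (horizontal) and library (colour), with 95% counting intervals; classes with under 30 cells in a library are not drawn, which leaves out clusters 1 and 12 of the ERK inhibitor library. The ERK inhibitor points stand at 160 CPM in basal and 147 CPM in suprabasal keratinocytes, and near the DMSO point in cycling cells.

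Other Cyp2b genes and genes of receptors for foreign compounds were sparse or stayed near their DMSO level. Cyp2b19, a keratinocyte cytochrome P450 of the same family, stood at 29.0 CPM under the ERK inhibitor, 24.7 under the ErbB2 inhibitor, 25.6 under the FGFR inhibitor and 24.2 in DMSO. Its ratios were 0.27 for the ERK inhibitor, 0.03 for the ErbB2 inhibitor and 0.08 for the FGFR inhibitor, all within 1.5-fold. Cyp2b23 had 1 UMI in the keratinocytes of all 6 libraries together. Nr1i3, which encodes CAR, had 0 keratinocyte UMIs under the ERK inhibitor and under the FGFR inhibitor, 3 under the ErbB2 inhibitor and 2 in DMSO. Nr1i2, another receptor gene, had 0 under the ERK inhibitor, 3 under the ErbB2 inhibitor, 5 under the FGFR inhibitor and 4 in DMSO. A count of 0 allows up to 0.659 CPM in the ERK inhibitor library. Ahr, the aryl hydrocarbon receptor, stood at 27.2 CPM under the ERK inhibitor, 20.1 under the ErbB2 inhibitor, 26.6 under the FGFR inhibitor and 24.3 in DMSO.

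Between 77.85% (ErbB2 inhibitor) and 100% (ERK inhibitor) of the Cyp1a1 UMIs of a library came from the sebaceous gland, and its level there stayed within 1.5-fold of the control in all 4 comparisons. It was 71.4 CPM under the ERK inhibitor, 101 under the ErbB2 inhibitor, 94.3 under the FGFR inhibitor and 83.6 in DMSO, with ratios of -0.20, 0.27 and 0.18 for the ERK, ErbB2 and FGFR inhibitors. In the ERK inhibitor library 19 of its 56 UMIs came from 1 cell. In keratinocytes it had 0 UMIs under the ERK inhibitor, 197 under the ErbB2 inhibitor, 14 under the FGFR inhibitor and 78 in DMSO. Against the 3 UMIs that a count of 0 allows, the level was at least 2.73-fold lower under the ERK inhibitor than in DMSO. The ErbB2 inhibitor ratio was 1.45 (1.08 to 1.86), and 0.68 at the DMSO cluster mix. The FGFR inhibitor ratio was -1.40 (-2.42 to -0.65). The keratinocyte levels of 4.97 CPM under the ErbB2 inhibitor, 0.643 under the FGFR inhibitor and 1.80 in DMSO were below the median of the non-epithelial types in their own libraries, which was 6.29 CPM under the ErbB2 inhibitor, 4.09 under the FGFR inhibitor and 4.13 in DMSO, so these ratios cannot be told apart from a difference in background. Sebaceous marker genes summed to 421 CPM in keratinocytes under the ERK inhibitor (3 of the list at 0), 581 CPM under the ErbB2 inhibitor, 367 CPM under the FGFR inhibitor and 431 CPM in DMSO (1 at 0 in each); their part in the Cyp1a1 counts was not tested.

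Cyp4b1 stood at 7.25 CPM in keratinocytes under the ERK inhibitor, 8.88 under the ErbB2 inhibitor, 6.48 under the FGFR inhibitor and 6.18 in DMSO. The ERK inhibitor ratio was 0.27, but 0.90 with all interfollicular clusters, which take in cluster 1. With thinned cells it was 1.57, on only 4 UMIs in 3 cells under the ERK inhibitor and 47 UMIs in DMSO. The ErbB2 inhibitor ratio was 0.52 (0.29 to 0.76), below 1.5-fold, and it was 0.86 at the DMSO cluster mix. Within basal cells it was 1.11 (0.76 to 1.48) and within cycling cells 1.31 (0.89 to 1.73), with a level of 18.9 CPM in basal cells under the ErbB2 inhibitor and 8.70 in DMSO. Of the 12 clusters with enough UMIs, 10 were higher past 1.5-fold under the ErbB2 inhibitor and 0 lower. In cluster 1, where the gene is most abundant, the levels were 160 CPM under the ERK inhibitor, 96.2 under the ErbB2 inhibitor, 70.3 under the FGFR inhibitor and 33.9 in DMSO. All 3 inhibitor libraries lay above DMSO there, with ratios of 2.26 (1.64 to 2.79) for the ERK inhibitor, 1.49 (1.17 to 1.84) for the ErbB2 inhibitor and 1.05 (0.64 to 1.46) for the FGFR inhibitor, although Cyp4b1 is itself among the leading genes of that cluster.

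Fmo2 was lower under the ERK inhibitor. It stood at 71.2 CPM in keratinocytes under the ERK inhibitor, 105 under the ErbB2 inhibitor, 108 under the FGFR inhibitor and 120 in DMSO. The ERK inhibitor ratio of -0.75 (-0.92 to -0.60) was -0.36, within 1.5-fold, at the DMSO cluster mix over the 9 clusters both libraries fill, where the library's own mix gave -0.48, and -0.54 with the lowest non-epithelial level subtracted. By layer it was -3.20 in cycling cells, where the ERK inhibitor library had 9 UMIs and DMSO 1094, -0.79 in basal cells and -0.01 in suprabasal cells. Fmo2 is among the leading genes of 3 clusters (0, 11 and 13). In hair germ and outer bulge the gene was at 79.3 CPM under the ErbB2 inhibitor and 31.5 CPM in DMSO, a ratio of 1.32 (0.90 to 1.78).

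Aldh3a1 differed by less than 1.5-fold in keratinocytes as counted, and by more with the lowest non-epithelial level subtracted. Its levels were 506 CPM under the ERK inhibitor, 356 under the ErbB2 inhibitor, 485 under the FGFR inhibitor and 392.2 in DMSO, with ratios of 0.37 for the ERK inhibitor, -0.14 for the ErbB2 inhibitor and 0.31 for the FGFR inhibitor. The lowest non-epithelial level of the gene was 0 CPM under the ERK inhibitor, 75.5 CPM under the ErbB2 inhibitor, 12.3 CPM under the FGFR inhibitor and 257 CPM in DMSO. With it subtracted, the ratios were 1.90 for the ERK inhibitor, 1.05 for the ErbB2 inhibitor and 1.80 for the FGFR inhibitor, all past 1.5-fold. These ratios depend on which level is taken as background. The non-epithelial median was 25.1 CPM under the ERK inhibitor, 157 under the ErbB2 inhibitor, 154 under the FGFR inhibitor and 367 in DMSO, where it was near the keratinocyte level. Within layers, as counted, it was higher past 1.5-fold in suprabasal cells under the ERK inhibitor (419 CPM, against 264 in DMSO; 0.67, 0.57 to 0.76) and in cycling cells under the FGFR inhibitor (1307 CPM, against 727 in DMSO; 0.85, 0.79 to 0.91). In hair germ and outer bulge it was at 1895 CPM under the ERK inhibitor, 2338 under the ErbB2 inhibitor, 4422 under the FGFR inhibitor and 2794 in DMSO. The FGFR inhibitor library was the highest of the spiny mouse libraries in that class, with a ratio of 0.66 (0.61 to 0.72).

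Aox4 was a suprabasal gene and was higher past 1.5-fold under the ERK inhibitor. In keratinocytes it stood at 85.0 CPM under the ERK inhibitor, 69.3 under the ErbB2 inhibitor, 69.1 under the FGFR inhibitor and 48.8 in DMSO, with ratios of 0.80 (0.64 to 0.96) for the ERK inhibitor, 0.50 (0.42 to 0.59) for the ErbB2 inhibitor and 0.50 (0.40 to 0.60) for the FGFR inhibitor. Within suprabasal cells it stood at 146 CPM under the ERK inhibitor, 95.05 under the ErbB2 inhibitor, 109 under the FGFR inhibitor and 88.8 in DMSO, and the ratios were 0.72 (0.56 to 0.88) for the ERK inhibitor, 0.10 for the ErbB2 inhibitor and 0.30 for the FGFR inhibitor. In basal cells the gene stayed at or below 9.37 CPM in all 4 spiny mouse libraries. At the DMSO cluster mix the ratios were 0.58 for the ERK inhibitor, which is just under 1.5-fold, 0.24 for the ErbB2 inhibitor and 0.29 for the FGFR inhibitor. The ERK inhibitor value covers the 9 clusters both libraries fill, and there the library's own mix already gave 0.56. For the ErbB2 and FGFR inhibitors the own mix over the 15 shared clusters gave 0.50. With the lowest non-epithelial level subtracted, Aox4 passed 1.5-fold under all 3 inhibitors, at 1.14 for the ERK inhibitor, 0.84 for the ErbB2 inhibitor and 0.71 for the FGFR inhibitor.

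**Figure D4:**
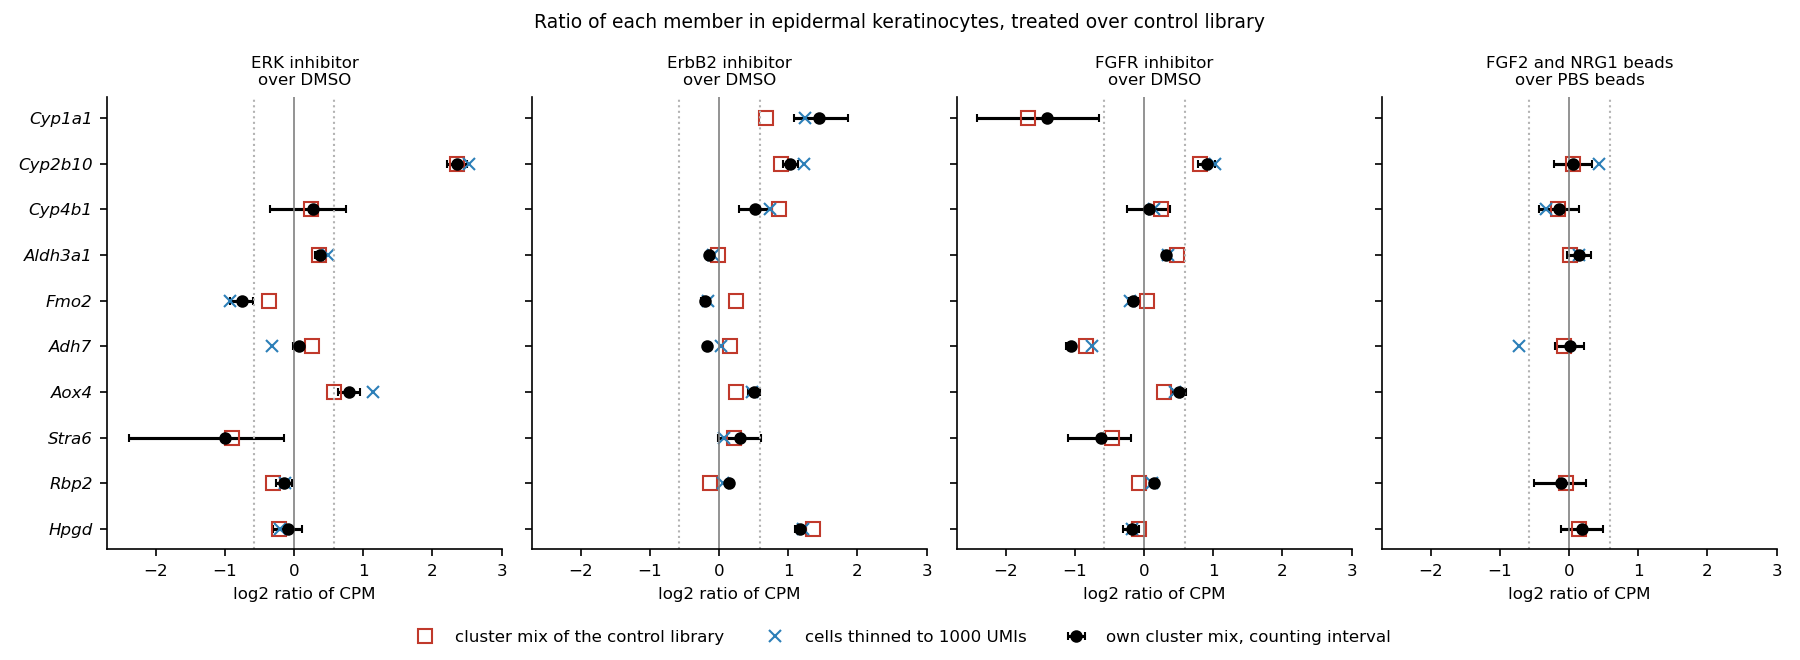
Log2 ratio of CPM of each gene in epidermal keratinocytes for the 4 comparisons. Circles with 95% counting intervals use each library's own cells, squares the clusters weighted to the control library's mix (9 clusters for the ERK inhibitor), and crosses cells thinned to 1000 UMIs where both libraries kept at least 10 UMIs; dotted lines mark 1.5-fold. Genes under 30 UMIs, and Cyp1a1 under the ERK inhibitor with 0 UMIs, are not drawn. Circle and square lie close together for Cyp2b10 under the ERK inhibitor (2.36 and 2.35) and apart for Fmo2 (-0.75 and -0.36).

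Among the retinoid genes, Adh7 was lower under the FGFR inhibitor. It stood at 255 CPM in keratinocytes under the ERK inhibitor, 217 under the ErbB2 inhibitor, 117 under the FGFR inhibitor and 244 in DMSO. The FGFR inhibitor library was the low one, with a ratio of -1.06 (-1.13 to -1.0), or -0.84 at the DMSO cluster mix. The ratio was -0.61 in basal, -1.06 in cycling and -1.18 in suprabasal cells, and 16 of 26 clusters were lower past 1.5-fold and 0 higher. Under the ERK inhibitor Adh7 was higher in cluster 1, at 1392 CPM against 674 CPM in DMSO (1.05, 0.87 to 1.22), and in the sebaceous gland, at 189 CPM against 60.4 CPM in DMSO (1.65, 1.37 to 1.91). Sebaceous cluster 18 held 110 of those 148 UMIs, and 1 cell held 38. The non-epithelial Adh7 median was 0 CPM under the ERK inhibitor, 65.0 under the ErbB2 inhibitor, 28.2 under the FGFR inhibitor and 114 in DMSO. The part of background in the Adh7 ratios was not tested.

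Rbp2 kept close to its DMSO level in the layer where it is abundant. In suprabasal cells it was 232 CPM under the ERK inhibitor, 241 under the ErbB2 inhibitor, 267 under the FGFR inhibitor and 263 in DMSO, with ratios between -0.18 and 0.02. In basal cells it was 34.3 CPM under the ERK inhibitor, 40.1 under the ErbB2 inhibitor, 37.02 under the FGFR inhibitor and 56.0 in DMSO. All 3 inhibitor libraries lay below DMSO, with ratios of -0.68 (-1.18 to -0.27) for the ERK inhibitor, -0.48 for the ErbB2 inhibitor and -0.59 for the FGFR inhibitor. The non-epithelial median of Rbp2 was 0 CPM under the ERK inhibitor, 61.4 CPM under the ErbB2 inhibitor, 33.9 CPM under the FGFR inhibitor and 61.4 CPM in DMSO, and the part of background in the basal ratios was not tested.

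Stra6 was sparse in keratinocytes. It had 8 UMIs under the ERK inhibitor, of which 4 in 1 cell, 191 under the ErbB2 inhibitor, 55 under the FGFR inhibitor and 170 in DMSO. The ratios were -1.0 (-2.39 to -0.15) for the ERK inhibitor, 0.30 (-0.01 to 0.60) for the ErbB2 inhibitor and -0.62 (-1.10 to -0.19) for the FGFR inhibitor. Its keratinocyte level was below the non-epithelial median in the FGFR inhibitor library (2.53 against 2.83 CPM) and in DMSO. Neither lower call held throughout. The ERK inhibitor ratio was -0.34 when each cell counted alike. The FGFR inhibitor ratio lay within 1.5-fold under 6 of the 9 alternatives, down to -0.15 with all interfollicular clusters. After thinning the ERK inhibitor ratio was -0.38, but 0 UMIs were left there and 36 in DMSO, so the added UMI sets that value. Where it is abundant, in cluster 12, it stood at 246 CPM under the ErbB2 inhibitor, 150 under the FGFR inhibitor and 122 in DMSO, with ratios of 1.01 (0.73 to 1.29) for the ErbB2 inhibitor and 0.30 (-0.03 to 0.62) for the FGFR inhibitor. Cluster 12 had 9 cells in the ERK inhibitor library and no ratio is given for it.

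Hpgd was higher under the ErbB2 inhibitor in most of the epithelium. In keratinocytes it stood at 45.5 CPM under the ERK inhibitor, 109 under the ErbB2 inhibitor, 42.7 under the FGFR inhibitor and 48.6 in DMSO. The ErbB2 inhibitor ratio was 1.17 (1.10 to 1.25), or 1.36 at the DMSO cluster mix, and with a non-epithelial median of 52.7 CPM against 53.3 CPM in DMSO. The ratios as counted were -0.09 for the ERK inhibitor and -0.18 for the FGFR inhibitor. With the lowest non-epithelial level subtracted (0 CPM under the ERK and FGFR inhibitors, 28.9 CPM under the ErbB2 inhibitor and 20.6 CPM in DMSO), all 3 passed 1.5-fold, at 0.68 for the ERK inhibitor, 1.49 for the ErbB2 inhibitor and 0.59 for the FGFR inhibitor. The subtracted ratios depend on which level is taken as background, since the non-epithelial median in DMSO was above the keratinocyte level. As counted, the ErbB2 inhibitor ratio was 1.82 (1.69 to 1.95) in basal, 1.26 in cycling and 1.11 in suprabasal cells, and 1.57 in cluster 1. Of 27 clusters 19 were higher past 1.5-fold and 1, sebaceous cluster 36, lower (-0.68).

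In hair germ and outer bulge, where Hpgd is most abundant, it was at 851 CPM under the ERK inhibitor, 921 under the ErbB2 inhibitor, 553 under the FGFR inhibitor and 410 in DMSO. All 3 inhibitor libraries lay above DMSO there, with ratios of 1.06 (0.85 to 1.25) for the ERK inhibitor, 1.16 (1.05 to 1.29) for the ErbB2 inhibitor and 0.43 (0.27 to 0.59) for the FGFR inhibitor. In the sebaceous gland it was at 56.1 CPM under the ERK inhibitor, 92.0 under the ErbB2 inhibitor, 72.5 under the FGFR inhibitor and 88.6 in DMSO, with the ERK inhibitor library lowest (-0.63, -1.13 to -0.22). With thinned cells that ratio turned to 0.67, on 7 UMIs under the ERK inhibitor and 123 in DMSO.

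**Figure D5:**
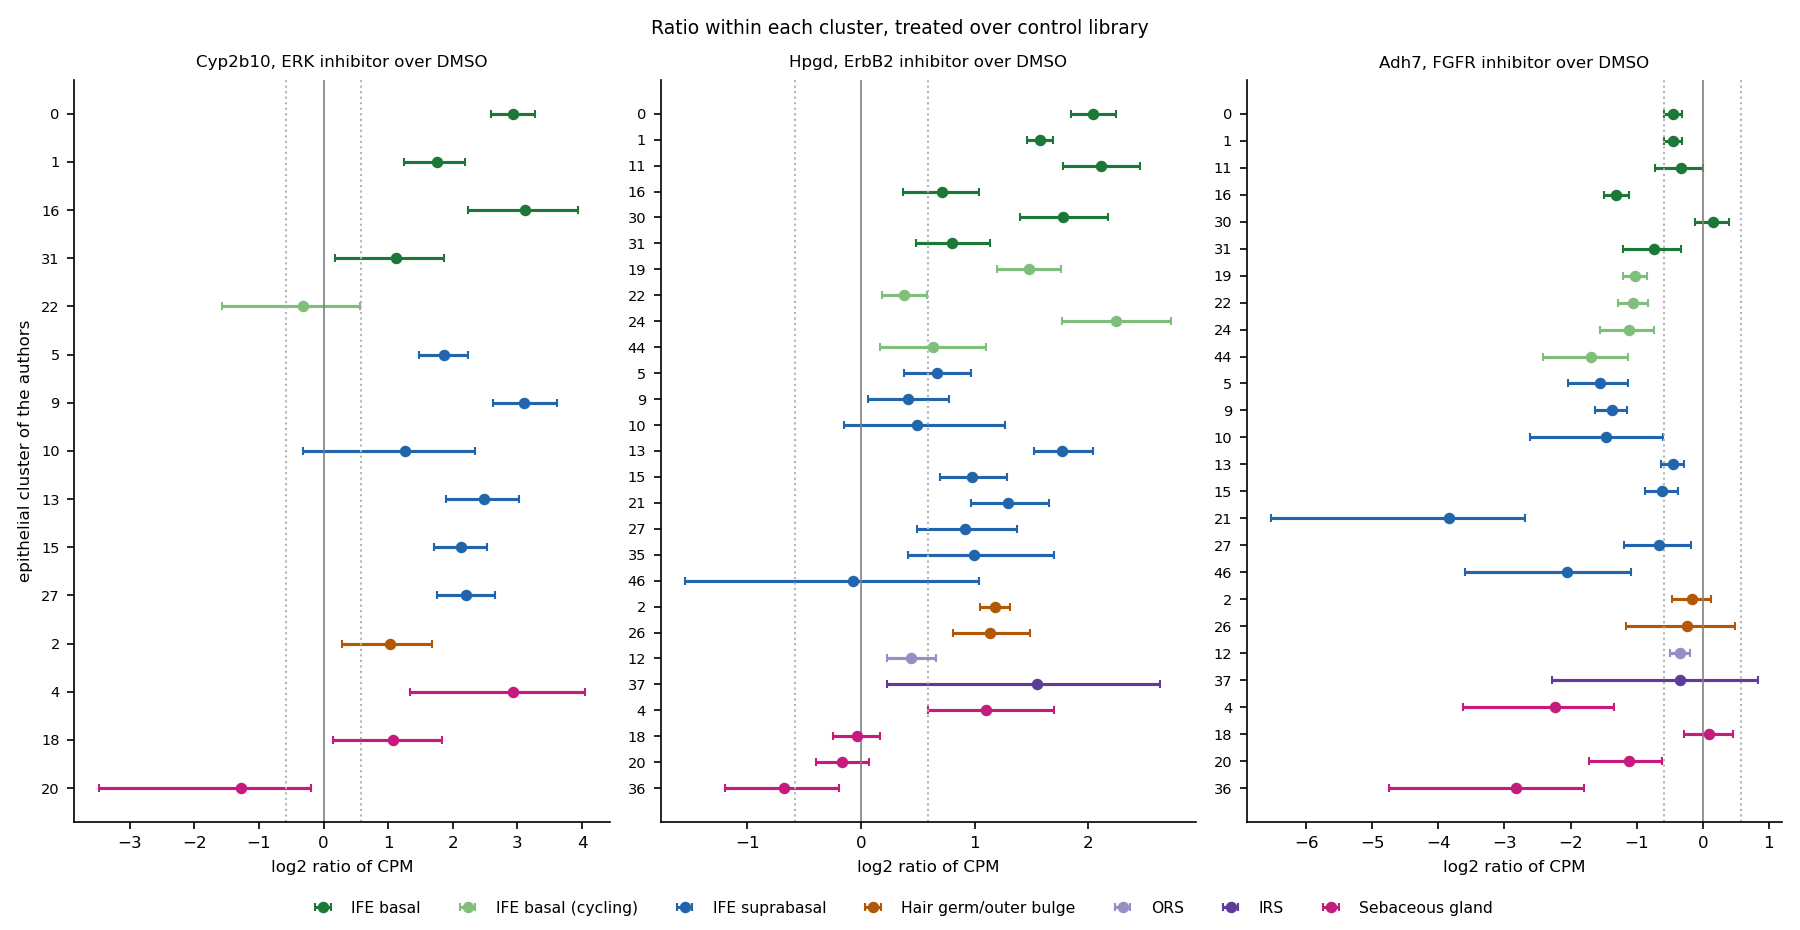
Log2 ratio within each epithelial cluster, with 95% counting intervals, for Cyp2b10 under the ERK inhibitor (left), Hpgd under the ErbB2 inhibitor (middle) and Adh7 under the FGFR inhibitor (right); points are coloured by the authors' cell type. For Cyp2b10 under the ERK inhibitor 13 of 15 clusters lie above 1.5-fold, for Hpgd under the ErbB2 inhibitor 19 of 27, and for Adh7 under the FGFR inhibitor 16 of 26 lie below it.

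Counted over the list, 2 members were higher and 3 lower in keratinocytes under the ERK inhibitor, of 10 measured; over all genes with enough UMIs 11.3% were higher and 12.4% lower. Cyp2b10 and Aox4 were the higher ones. Cyp1a1, Fmo2 and Stra6 were the lower ones. Under the ErbB2 inhibitor 3 of 10 were higher (Cyp1a1, Cyp2b10 and Hpgd) and 0 lower, against 6.83% and 11.3% of all genes. Under the FGFR inhibitor 1 of 10 was higher (Cyp2b10) and 3 lower (Cyp1a1, Adh7 and Stra6), against 4.69% and 10.6%. The median log2 ratio over the members was -0.01 for the ERK inhibitor, 0.40 for the ErbB2 inhibitor and -0.04 for the FGFR inhibitor. The contrast with the ERK inhibitor chose the list, so nothing is read from its count, and with so few genes the other counts describe these libraries only.

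In smaller classes more genes of any kind passed the same threshold. In hair germ and outer bulge 2 of 6 members measured were higher (Cyp2b10 and Hpgd) and 1 lower (Rbp2) under the ERK inhibitor, beside 22% of all genes higher and 12.7% lower. With the ErbB2 inhibitor 4 of 10 were higher (Cyp2b10, Cyp4b1, Fmo2 and Hpgd) and 0 lower, beside 12.4% and 7.51%. Under the FGFR inhibitor 3 of 8 were higher (Cyp2b10, Cyp4b1 and Aldh3a1) and 1 lower (Rbp2), beside 10.6% and 6.47%. In the sebaceous gland 2 of 9 were higher (Cyp2b10 and Adh7) and 4 lower (Fmo2, Stra6, Rbp2 and Hpgd) under the ERK inhibitor, beside 18.3% and 9.69%. In the ERK inhibitor library 0% of the 37 Stra6 UMIs and 0.288% of the 347 Fmo2 UMIs were sebaceous. A count of 0 is read as up to 3 UMIs, so a lower Stra6 level is not shown there. With thinned cells the ratios of those 4 lower genes were all above 0, with at most 7 UMIs each under the ERK inhibitor. For Stra6 the added UMI sets the thinned value, so nothing is read from its sign. With the ErbB2 inhibitor 1 of 10 was higher (Cyp4b1) and 0 lower, beside 3.76% and 8.31%, and under the FGFR inhibitor 1 of 9 was higher (Cyp2b10) and 3 lower (Fmo2, Adh7 and Rbp2), beside 3.5% and 8.23%. Spinous marker genes in hair germ and outer bulge summed to 1053 CPM under the ERK inhibitor and 8323 CPM under the FGFR inhibitor. They summed to 22820 CPM under the ErbB2 inhibitor and 22600 CPM in DMSO. In the sebaceous gland the sums were 909, 10620, 4410 and 10890 CPM under the ERK, ErbB2 and FGFR inhibitors and in DMSO. The part of these differences in the lower Rbp2 calls was not tested.

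The beads in CD1 mice left the members within 1.5-fold in keratinocytes. All 6 members with enough UMIs stayed inside that range, with log2 ratios between -0.14 and 0.18, beside 8.01% of all genes past it in either direction. Aldh3a1 was at 65.2 CPM with FGF2 and NRG1 beads and 59.2 CPM with PBS beads, Adh7 at 38.3 CPM and 38.2 CPM, and Cyp4b1 at 20.8 CPM and 23.0 CPM. The 95% intervals of the 6 ratios lay between -0.50 (Rbp2) and 0.49 (Hpgd). With cells thinned to 1000 UMIs, Hpgd (17 UMIs with FGF2 and NRG1 beads, 7 with PBS beads) and Adh7 (21 UMIs with FGF2 and NRG1 beads, 39 with PBS beads) passed 1.5-fold, at 1.31 and -0.72, and without the deepest 5% of cells Rbp2 did, at -0.69. In hair germ and outer bulge 1 of 4 members passed, Cyp4b1 at 52.5 CPM with FGF2 and NRG1 beads and 85.7 CPM with PBS beads, beside 16.7% of all genes, and in the sebaceous gland 0 of 5 did, beside 10%. Sebaceous Cyp1a1 was at 58.2 CPM with FGF2 and NRG1 beads and 58.1 CPM with PBS beads. Fmo2 and Aox4, which were well measured in spiny mouse keratinocytes, had 5 and 13 UMIs with FGF2 and NRG1 beads and 10 and 15 with PBS beads, too few for a ratio.

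The wider pathways were read from lists of known genes in keratinocytes, chosen with results of these data known. Over all genes in keratinocytes, 11.3% were higher and 12.4% lower under the ERK inhibitor, 6.83% and 11.3% under the ErbB2 inhibitor, 4.69% and 10.6% under the FGFR inhibitor, and 4.08% and 3.92% with the beads. The median log2 ratio over all genes was 0.00036 for the ERK inhibitor, -0.09 for the ErbB2 inhibitor, -0.08 for the FGFR inhibitor and -0.02 for the beads. Under the ERK inhibitor 4 of 18 measured cytochrome P450 genes outside the 10 members were higher past 1.5-fold and 1 lower, with a median ratio of 0.21. Cyp1b1, an aryl hydrocarbon receptor target, was at 9.01 CPM against 4.66 CPM in DMSO (0.98, 0.43 to 1.44), and Cyp2u1 was at 5.49 CPM against 2.70 CPM. The receptor list had 6 measured genes, with Ahr and Nr1h2 among them and Nr1i3 and Nr1i2 too sparse to be measured. It had 0 higher and 0 lower in each of the 4 comparisons, with medians between -0.19 and 0.12. Of 7 measured aryl hydrocarbon receptor targets 1 was higher and 0 lower under the ERK inhibitor, 0 and 0 under the ErbB2 inhibitor, and 1 and 1 under the FGFR inhibitor, with medians of 0.17 for the ERK inhibitor, -0.06 for the ErbB2 inhibitor and 0.12 for the FGFR inhibitor. The lower one under the FGFR inhibitor was Cyp1b1, at 2.71 CPM against 4.66 CPM in DMSO (-0.77, -1.23 to -0.36). Of 18 targets of NRF2, the regulator of the oxidative stress response, 5 were higher and 2 lower under the ERK inhibitor, 3 and 0 under the ErbB2 inhibitor, and 1 and 0 under the FGFR inhibitor, with medians of 0.08, 0.03 and -0.18. Prdx1, a peroxidase, was at 876 CPM under the ERK inhibitor and 460 CPM in DMSO (0.93, 0.88 to 0.98). Hmox1, which breaks down haem, had 111 UMIs under the ERK inhibitor and 58 in DMSO (24.4 and 1.34 CPM), but those 111 UMIs came from 10 cells, 33 of them from 1.

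Of the retinoid list, 10 of 26 measured genes were higher and 0 lower under the ErbB2 inhibitor, with a median ratio of 0.35, beside 6.83% and 11.3% of all genes. Granular keratinocyte marker genes in the same cells summed to 4917 CPM under the ErbB2 inhibitor and 1703 CPM in DMSO (1 of 10 at 0 in each), and suprabasal cells were 65.8% and 41.6% of them; the part of these differences in the list's count was not tested. In the sebaceous gland the same list had 1 higher and 2 lower of 22 under the ErbB2 inhibitor, beside 3.76% and 8.31% of all genes. Bco1, which splits carotenoids into retinaldehyde, was at 13.3 CPM against 6.25 CPM in DMSO (1.09, 0.87 to 1.30). Rdh12, a retinal reductase, was at 60.3 CPM against 29.5 CPM in DMSO (1.03, 0.93 to 1.13). Under the ERK inhibitor the same list had 6 higher and 7 lower of 24, and several of the lower ones stood at 1 UMI in that small library. Among them were Crabp1 (0.22 CPM, against 2.26 CPM and 98 UMIs in DMSO) and Ttr (0.22 CPM, against 2.38 CPM and 103 UMIs). Under the FGFR inhibitor the list had 3 higher and 3 lower of 24. Crabp2, which carries retinoic acid to its receptors, was at 79.8 CPM there against 37.7 CPM in DMSO (1.08, 0.99 to 1.18). Granular marker genes summed to 4024 CPM in that library, and the part of cell mix in the Crabp2 ratio was not tested. With the beads 0 of 18 were higher and 1 lower, and that gene was Crabp2 at 22.0 CPM with FGF2 and NRG1 beads and 36.4 CPM with PBS beads (-0.72, -0.99 to -0.47).

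The ERK list was read beside the inhibitor labels, and the differences were not tested. Of 14 measured ERK targets and feedback genes, 10 were lower and 2 higher under the ERK inhibitor, with a median ratio of -0.87, beside 12.4% of all genes lower and 11.3% higher. Egr1, an immediate-early transcription factor, was at 0.22 CPM (1 UMI) under the ERK inhibitor and 5.26 CPM (228 UMIs) in DMSO (-3.59, -9.89 to -2.09). Fosl1, a subunit of the AP-1 factor, was at 0.66 CPM (3 UMIs) and 2.15 CPM (93 UMIs), a ratio of -1.30 (-4.01 to -0.11). Myc was the other way round, at 56.7 CPM under the ERK inhibitor and 22.0 CPM in DMSO. Under the ErbB2 inhibitor 6 of 15 were lower and 2 higher, and under the FGFR inhibitor 2 of 14 were lower and 2 higher, with medians of -0.39 and 0.13. The 2 higher under the FGFR inhibitor were Fos, at 309 CPM against 69.9 CPM in DMSO (2.15), and Egr1, at 10.9 CPM against 5.26 CPM (1.05). The part of background in the low counts of this list was not tested.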

How the data were processed

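Single cells of 4 spiny mouse and 2 mouse libraries were read from the UMI counts that the authors deposited (whole numbers, not normalized), with the authors' library, cluster and cell type of each cell. The libraries used 10x Genomics 3′ chemistry, per the labels' protocols. Cell Ranger 6.1.1 and the build mm10/GRCm38 are named in the submitters' processing notes. Which sequence spiny mouse reads were counted against, and how cells were filtered, is not given in the sources used here. Reads of a spiny mouse gene may be lost or assigned to a relative where its sequence differs from the one counted against. All deposited cells were kept, and doublets were not called; leaving out the deepest 5% of cells was tried in place of that.

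Counts were summed per library and class of cells and divided by the class total (CPM). The log2 ratios used a pseudocount of 1 UMI, and calls used a fold of 1.5 and at least 30 UMIs over both libraries. Intervals are exact at 95% and cover counting error only, and a count of 0 was read as up to 3 UMIs. Classes needed 30 cells and single clusters 10 cells in both libraries. A cluster was kept out of its class when markers of another class outnumbered its own among its 10 leading genes; this applied to 5 of 22 interfollicular clusters. Ratios were recomputed under 9 alternatives and counts under 11. The text names all 10 genes and, per list of related genes, up to 4 with the largest ratio among those with at least 30 UMIs; for the genes most like each member, 5 were ranked by Pearson's r of log2(CPM + 1) over clusters. The members, the 9 gene lists and the 20 marker lists were chosen with earlier results of these data known. Scripts were tested on simulated data. Python 3.11.15, numpy 2.4.6, scipy 1.17.1, pandas 2.3.3 and matplotlib 3.10.9 were used.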

Additional observations from a re-analysis of the deposited data

Results flagged for a closer look

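Hpgd moved in opposite directions in 2 appendages under the ERK inhibitor. Its log2 ratio to DMSO was 1.06 in hair germ and outer bulge and -0.63 in the sebaceous gland, a difference of 1.69 that was not tested. The sebaceous value rests on 44 UMIs under the ERK inhibitor, against 746 in DMSO, and with cells thinned to 1000 UMIs it was 0.67.

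Members were also found in cells outside the epithelium, in some libraries at levels above those of every epithelial class with at least 30 cells in the same library. Fmo2 stood at 71.34 CPM in endothelium with FGF2 and NRG1 beads (350 UMIs) and at 102.2 CPM with PBS beads (168 UMIs), where the highest levels of such classes were 14.93 CPM with FGF2 and NRG1 beads and 2.255 CPM with PBS beads. Cyp4b1 stood at 143.7 CPM in dermal sheath and papilla cells with FGF2 and NRG1 beads (28 UMIs in 11 of 55 cells), above 52.46 CPM in the highest such class. With PBS beads the same cells held 18.68 CPM from 3 UMIs. In endothelium of the ERK inhibitor library Cyp4b1 stood at 20.74 CPM from 4 UMIs, beside 20.47 CPM in the highest such class, hair germ and outer bulge, which is no gap at this depth. Cluster 1, with 22 cells, held more, at 160 CPM. Hpgd stood at 226.8 CPM in resident macrophages with PBS beads, above 134.4 CPM in the highest such class. There 162 UMIs came from 32 of 110 cells and 37 of them from 1 cell. With FGF2 and NRG1 beads resident macrophages held 62.17 CPM, for which no such gap is claimed.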

How the results depend on the processing

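The keratinocyte ratios of the 10 genes were recomputed under 9 alternatives in 4 comparisons; 257 stayed within their 95% interval, 102 moved out of it and 1 that had passed 1.5-fold changed sign. That one was Cyp1a1 under the ERK inhibitor, 0.58 with cells thinned to 1000 UMIs, where no thinned UMI was left under the ERK inhibitor and the added UMI sets the value. The Cyp2b10 ratio for the ERK inhibitor was 2.53 thinned and 2.73 with the lowest non-epithelial level subtracted. For the ErbB2 inhibitor it was 1.23 thinned, 1.15 as a mean over cells, 0.90 at the DMSO cluster mix and 1.15 with subtraction. For the FGFR inhibitor it was 1.03 thinned, 1.06 as a mean over cells, 1.03 without the deepest 5% of cells and 1.29 with subtraction, and for the beads 0.43 thinned. Members past 1.5-fold under the ERK inhibitor, 5 as reported, were 3 at the DMSO cluster mix and 2 at a fold of 2. The value at the DMSO mix covers 9 clusters, over which the ERK inhibitor library's own mix also left Fmo2 (-0.48) and Aox4 (0.56) within 1.5-fold. Under the ErbB2 inhibitor, 3 as reported, they were 5 with median-of-ratios size factors and 5 with subtraction. Under the FGFR inhibitor, 4 as reported, they were 2 at a fold of 2. With the beads, 0 as reported, they were 2 thinned, 1 without the deepest cells and 1 with no filter on low counts, and within classes 2 of 5 values passed when thinned. In smaller classes some ratios also changed sign with thinned cells, among them Hpgd in the sebaceous gland under the ERK inhibitor (0.67). The cause of the other moves was not tested. No paired analysis was possible because each group is 1 library. The spread between animals is not known, and the ERK inhibitor library, with 256 keratinocytes, limits all values that use it.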

Other observations

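Genes of prostaglandin and eicosanoid metabolism, the pathway that Hpgd belongs to, were measured in keratinocytes as well. Over all genes, 11.3% were higher and 12.4% lower under the ERK inhibitor, 6.83% and 11.3% under the ErbB2 inhibitor, 4.69% and 10.6% under the FGFR inhibitor, and 4.08% and 3.92% with the beads. Under the ERK inhibitor 4 of 18 were higher past 1.5-fold and 2 lower, with a median log2 ratio of 0.18. Ptges, a prostaglandin E synthase, was at 24.4 CPM under the ERK inhibitor and 9.60 CPM in DMSO (1.35, 1.03 to 1.65). Under the ErbB2 inhibitor 5 of 20 were higher and 3 lower, and under the FGFR inhibitor 4 of 19 were higher and 0 lower, with medians of 0.11 for the ErbB2 inhibitor and 0.04 for the FGFR inhibitor. Aloxe3, an epidermal lipoxygenase of the skin barrier, was at 32.2 CPM under the ErbB2 inhibitor, 26.7 CPM under the FGFR inhibitor and 17.2 CPM in DMSO. Granular marker genes in the same cells summed to 4917 CPM, 4024 CPM and 1703 CPM in these libraries. The part of cell mix in the counts of this list was not tested. With the beads 1 of 16 was higher and 0 lower (median 0.08). Of the other enzymes of foreign compound metabolism, 11 of 50 were higher and 9 lower under the ERK inhibitor (median 0.07), 7 of 52 and 4 under the ErbB2 inhibitor (-0.02), 3 of 50 and 5 under the FGFR inhibitor (-0.07) and 2 of 45 and 3 with the beads (-0.05). Akr1b8, an aldo-keto reductase, had 3 UMIs (0.66 CPM) under the ERK inhibitor and 324 UMIs (7.48 CPM) in DMSO. It stood at 2.57 CPM under the ErbB2 inhibitor and 3.90 CPM under the FGFR inhibitor.

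Among retinoid receptors and targets, 1 of 8 was higher and 3 lower under the ERK inhibitor (median -0.08), 1 of 9 and 0 under the ErbB2 inhibitor (-0.02), 1 of 8 and 0 under the FGFR inhibitor (0.20) and 2 of 10 and 0 with the beads (0.02). Fabp5, a fatty acid-binding protein that also carries retinoic acid, was at 3093 CPM under the ERK inhibitor, 6875 under the ErbB2 inhibitor, 7672 under the FGFR inhibitor and 5062 in DMSO. Across the 27 epithelial clusters of the DMSO library, which share 1 library and its background, the gene whose level was most like that of Cyp2b10 was Casz1 (Pearson's r = 0.868), and for Rbp2 it was Krtdap (0.959), a gene of differentiating keratinocytes.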
